A study of Mus musculus with 2 samples.

Results

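The 10 genes described here, Ets1, Ets2, Fli1, Elf1, Elf2, Elf4, Gabpa, Etv3, Etv6 and Elk4, code for transcription factors of the ETS family. They were taken from a fixed list of names and matched to GENCODE M21 gene names in the larger gene table of each library. All 10 of 10 names matched, out of 55536 genes in that table. The cells were inflammation-experienced regulatory T cells, a CD4 T cell type that holds immune responses in check and depends on the factor Foxp3, here primary cells from a male adult mouse of 6 months. The strain was labelled Foxp3CreERT2 x Rosa26YFP, so the cells carried a tamoxifen-inducible Cre recombinase expressed from Foxp3 and a YFP reporter at Rosa26. The labels trace the cells to a bone marrow hematopoietic cell, and they gave 1 group with 1 biological replicate. Its polyA RNA was sequenced as 2 technical libraries, technical replicates 1 and 2, from sheared fragments of 100 to 300 bp. No other T cells or untreated animals were analysed here. The comparisons are therefore between genes, between transcripts and between the libraries, and every SD and p-value below covers technical spread and not the spread between animals.

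ETS factors share a winged helix-turn-helix DNA-binding domain. The third helix of this domain lies in the major groove and reads a GGAA core through a pair of conserved arginines. The flanking bases, partner proteins such as Runx1 and SRF, and phosphorylation by MAP kinases then decide which sites each member uses. In T cells Ets1 is needed for development and survival, and Ets1 and Elf1 bind near T cell receptor and cytokine receptor genes. Some members, such as Etv3 and Etv6, are repressors.

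The part of the coding sequence that reads DNA is shown for each member, since the transcripts described below differ in whether they hold it. Each run is 39 bases of the coding strand, 5′ to 3′, taken from GENCODE M21 transcripts on mm10. The capitals mark the 4 codons that start with the second conserved arginine of the third helix.
Ets1: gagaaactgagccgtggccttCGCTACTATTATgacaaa
Ets2: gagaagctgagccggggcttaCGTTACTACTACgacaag
Fli1: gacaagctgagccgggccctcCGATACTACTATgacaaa
Elf1: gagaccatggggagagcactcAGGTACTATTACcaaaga
Elf2: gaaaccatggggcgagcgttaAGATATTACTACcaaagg
Elf4: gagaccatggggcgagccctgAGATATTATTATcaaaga
Gabpa: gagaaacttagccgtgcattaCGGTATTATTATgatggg
Etv3: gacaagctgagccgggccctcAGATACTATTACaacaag
Etv6: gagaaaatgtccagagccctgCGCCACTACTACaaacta
Elk4: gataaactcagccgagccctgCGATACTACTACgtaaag
In 9 of the 10 members the marked codons read arginine and 3 tyrosines. Etv6 is the exception, with arginine, histidine, tyrosine and tyrosine. Counted from 1 at the first marked base, the Ets1 codons and those of Etv6 differ by T4C, T9C and T12C, and T4C is the change that replaces the tyrosine codon. The Ets1 and Elf2 codons differ by C1A, C3A, C6T, T9C and T12C, all of which keep the residues. Over the 39 bases the members shared from 19 bases (48.7%, Ets1 with Elf2) to 34 bases (87.2%, Fli1 with Etv3). Within the ELF group Elf1 and Elf4 shared 33 bases and Elf2 and Elf4 shared 32 bases. These windows lie in coding exons. In Ets1 (chr9:32754261-32754299, plus strand), Ets2 (chr16:95718971-95719009, plus), Fli1 (chr9:32424100-32424138, minus), Etv6 (chr6:134263040-134263078, plus) and Elk4 (chr1:132014560-132014598, plus) the window lay in a single exon. In Elf1, Elf2, Elf4, Gabpa and Etv3 an exon junction fell after base 2 of the arginine codon. Their parts were chr14:79570893-79570915 and chr14:79573172-79573187 for Elf1 (plus), chr3:51259172-51259194 and chr3:51257760-51257775 for Elf2 (minus), chrX:48417871-48417893 and chrX:48417009-48417024 for Elf4 (minus), chr16:84857550-84857572 and chr16:84860375-84860390 for Gabpa (plus), and chr3:87528085-87528107 and chr3:87529224-87529239 for Etv3 (plus).

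The larger gene table gave TPM (a level scaled to a fixed library total), which corrects for transcript length and so allows levels to be compared between genes. Technical replicates 1 and 2 held 15386113 and 13604480 rounded counts over its genes. A gene is called detected below at 1 TPM or more in both libraries, which held for 13511 genes (24.3%), with a median of 13.4 TPM. Of the 22028 protein-coding genes, 10288 (46.7%) were detected. Of 12 T cell markers 12 were detected, at a median of 752 TPM, with Foxp3 at 22.05 and 17.90 TPM. Of 8 myeloid markers 0 were detected, with summed levels of 1.77 and 1.88 TPM, and of 9 stromal, endothelial and epithelial markers 1 was, Epcam. Of 7 B cell markers 3 were detected. Ighm stood at 776.82 and 706.34 TPM, Igkc at 102.31 and 34.32 TPM and Cd79b at 36.56 and 29.70 TPM, while Ms4a1, Cd79a and Pax5 lay between 0.23 and 1.66 TPM. The part of other cells in the levels below was not tested, and in bulk RNA fewer cells of a type and less RNA per cell cannot be told apart.

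All 10 members were detected, and their levels spanned from 3.64 TPM to 609 TPM. The median member stood at 31.1 TPM, with medians of 29.3 and 32.9 TPM in technical replicates 1 and 2. The median of all detected genes was 13.4 TPM and that of detected protein-coding genes 18.3 TPM. Of the 16 other ETS genes of the mouse, 3 were detected. Over these 26 genes the summed level was 1014.71 and 975.63 TPM, of which the 10 members held 96.6% and 96.2%. Ets1 alone held 62.2% and 60.1%. The members were chosen with earlier results of these data known, so these shares and medians are descriptive.

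**Figure D1:**
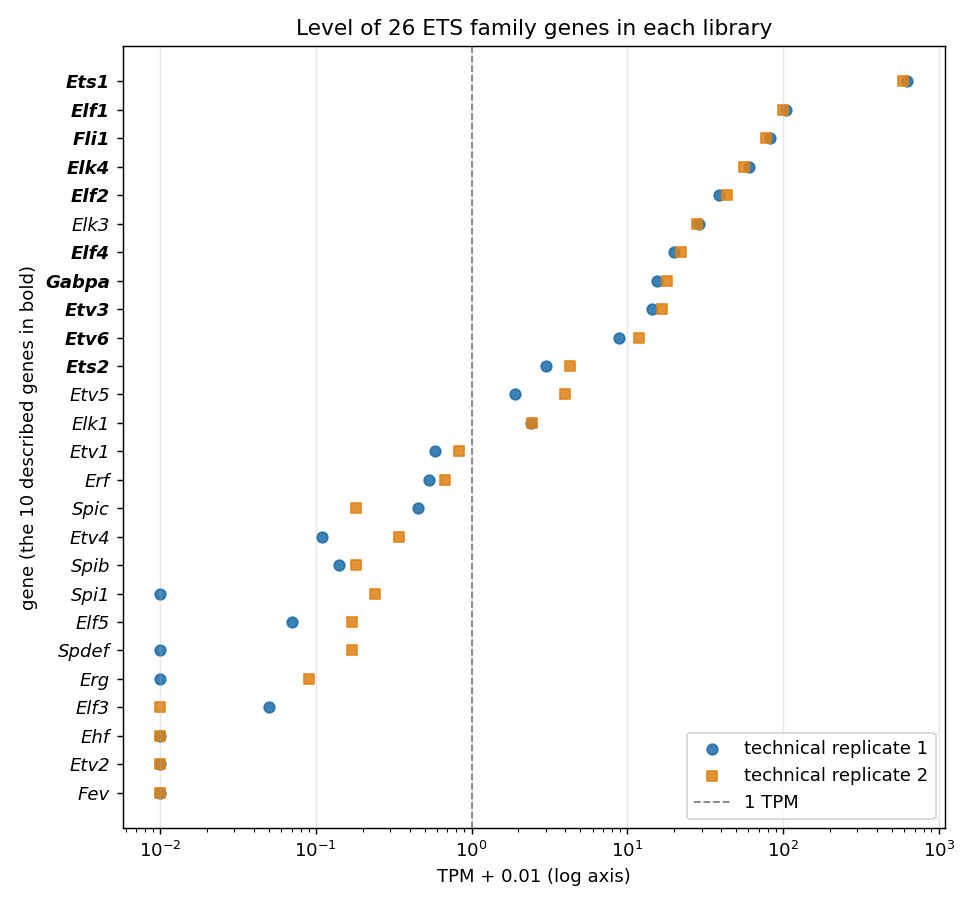
Level of each of 26 ETS family genes as TPM + 0.01 on a log axis, with circles for technical replicate 1, squares for technical replicate 2 and a dashed line at 1 TPM. The 10 members, in bold, all lie right of the line, with Ets1 highest, and of the 16 others only Elk3, Etv5 and Elk1 do so in both libraries.

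Ets1, the founding member of the family and a factor of T cell development and survival, had the highest level. Its gene lies at chr9:32636221-32757820 on the plus strand. Its level was 631.09 TPM in the first library and 586.64 TPM in the other, a mean of 609 ± 31.4 TPM (SD, n = 2 libraries). This was rank 232 of all genes and the 98.3rd percentile of detected genes. The estimated counts were 39070 (95% Poisson interval 38683 to 39459) and 32069 (31719 to 32422), so counting error was under 1% of the level. Ets1 exceeded Elf1, the next ETS gene, by 5.99-fold in technical replicate 1 and 5.84-fold in technical replicate 2, on the TPM scale. One transcript carried the gene. Ets1-201, of 5080 nt with a coding sequence of 1320 nt, took 98.6% of the TPM in each library. Ets1-202, which codes for a shorter protein from 1059 nt, stood at 0.57 and 0.37 TPM. The retained-intron transcript Ets1-203 stood at 7.64 and 8.03 TPM.

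Ets2, the closest paralog of Ets1 and a target of MAP kinase signalling, was the lowest of the members. Its gene lies at chr16:95702075-95721051 on the plus strand. It stood at 2.98 and 4.30 TPM (mean 3.64 ± 0.933 TPM, SD, n = 2 libraries), the 21.5th percentile of detected genes. Ets1 exceeded it by 212-fold in technical replicate 1 and 136-fold in technical replicate 2 on the TPM scale, and by counts of the smaller gene table, which are not per length, by 78-fold and 40-fold. The counts behind Ets2 were 127 (95% Poisson interval 106 to 151) and 177 (152 to 205). Ets2-201 held 86.1% and 96.8% of its TPM.

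Fli1, a factor of blood and endothelial development in the ERG group, followed Ets1 and Elf1 in level. Its gene lies at chr9:32422204-32542861 on the minus strand, on the same chromosome as Ets1. It stood at 82.03 and 77.88 TPM (mean 80.0 ± 2.93 TPM, SD, n = 2 libraries), from 3332 and 2795 counts. Its annotated full-length transcript Fli1-201, with a coding sequence of 1356 nt, took 100% of the TPM in both libraries. The other ERG group genes were near or at 0. Erg, an endothelial and stem cell factor, had 0 counts and 1 count, and Fev, a factor of serotonin neurons, had none. A count of 0 allows up to 3 counts, a one-sided limit that is lower than the upper bound of the two-sided intervals (3.69 counts), and 3 counts are 0.195 CPM in technical replicate 1 and 0.221 CPM in technical replicate 2. That limit and the Poisson intervals cover only counting error, as no molecular identifiers are given for these reads and copies of the same molecule would count more than once.

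The ELF group, Elf1, Elf2 and Elf4, followed Ets1 as the next largest share of ETS TPM, at 16.2% and 17.0%. Elf1, a T cell factor that binds cytokine receptor genes, lies at chr14:79481194-79582494 on the plus strand. It stood at 105.35 and 100.43 TPM (mean 103 ± 3.48 TPM, SD, n = 2 libraries). Its TPM was divided between 2 transcripts that hold the same 1836-nt coding sequence. Elf1-202 took 47.6% and 45.6% and Elf1-201 took 41.9% and 41.7%. Only 12 bases of Elf1-202, and 444 bases of Elf1-201, are in no other Elf1 transcript. The credibility bounds that the authors deposited overlapped for these transcripts in both libraries.

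Elf2, a paralog of Elf1 known as NERF, lies at chr3:51252720-51340663 on the minus strand. It stood at 38.61 and 43.86 TPM (mean 41.2 ± 3.71 TPM, SD, n = 2 libraries), from 843 and 807 counts. Its leading transcript by TPM was a fragment. Elf2-205, of 378 nt and annotated without a 3′ end, took 42.6% and 35.4% of the TPM and only 7.97% and 6.95% of the estimated counts. Elf2-208, annotated as a target of nonsense-mediated decay, took 25.7% and 18.7% of the TPM, and 46.8% and 35.6% of the counts. The coding transcript Elf2-203 took 15.1% and 16.0% of the TPM, and Elf2-209, another annotated decay target, took 3.99% and 14.5%. The Elf2 level in TPM was thus assigned in large part to short transcripts and annotated decay targets. This division is uncertain. Elf2-203, Elf2-205 and Elf2-209 hold 0 bases that are in no other Elf2 transcript, and Elf2-208 holds 96 of its 3249. By posterior mean TPM the share of Elf2-203 was 7.69% and 11.1%.

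Elf4, which restrains the division of CD8 T cells and acts on Klf4, lies at chrX:48411046-48463132 on the minus strand. It stood at 19.98 and 22.00 TPM (mean 20.99 ± 1.43 TPM, SD, n = 2 libraries), from 1448 and 1405 counts. Elf4-201 took 86.1% and 91.5% of the TPM and Elf4-202 took 13.9% and 8.53%, and these transcripts have coding sequences of the same 1965 nt. Elf1 exceeded Elf4 by 5.27-fold and 4.57-fold on the TPM scale. The epithelial relatives Elf3, Elf5 and Ehf lay at or below 0.16 TPM in both libraries.

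Gabpa, the DNA-binding subunit of GABP, which drives genes of mitochondria and basic cell function, lies at chr16:84834925-84863779 on the plus strand. It stood at 15.58 and 18.07 TPM (mean 16.8 ± 1.76 TPM, SD, n = 2 libraries). GABP works as a tetramer in which Gabpa pairs with a subunit that has no ETS domain, coded by Gabpb1 or Gabpb2. Gabpb1 stood at 43.03 and 37.28 TPM and Gabpb2 at 23.71 and 25 TPM, so each exceeded Gabpa in both libraries, by 2.76-fold and 2.06-fold for Gabpb1 and by 1.52-fold and 1.38-fold for Gabpb2. Gabpa-201 took 77.2% and 72.4% of the TPM, Gabpa-202, with the same coding sequence, 10.5% and 10.4%, and the retained-intron transcript Gabpa-205 12.3% and 11.6%. Gabpa shares 397 exon bases (6.98% of its exon bases) with Atp5j on the opposite strand, which stood at 372.84 and 386.51 TPM. Other members also share exon bases with a gene on the opposite strand. Elf1 shares 327 (4.85%) with Wbp4, at 23.34 and 20.92 TPM. Elk4 shares 84 (1.31%) with Mfsd4a, at 25.52 and 32.34 TPM. Elf2 (3.88%) and Etv6 (2.26%) share bases with genes at or below 2.11 TPM. Whether the counting used strand was not given in the sources used here, so reads of the shared bases cannot be told apart.

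Etv3, a repressor of the ERF group that is induced in macrophages by interleukin-10, lies at chr3:87525407-87540156 on the plus strand. It stood at 14.40 and 16.83 TPM (mean 15.6 ± 1.72 TPM, SD, n = 2 libraries). Its ranges overlapped those of Gabpa, the only neighbouring pair of members whose libraries did so. Etv3-202, with the full coding sequence of 1539 nt, took 50.2% of the TPM in technical replicate 1 and 28.8% in technical replicate 2. Etv3-205, which holds the same coding sequence, took 4.82% and 23.1%. For each of Etv3-202 and Etv3-205 the deposited credibility bounds overlapped between the libraries. Etv3-201, whose coding sequence of 438 nt keeps the third helix, took 36.4% and 42.0% of the TPM, and 18.4% and 22.8% of the estimated counts. This division is uncertain. Etv3-201 and Etv3-205 hold 0 bases that are in no other Etv3 transcript. Of the 2151 bases of Etv3-201, 2147 also lie in a retained-intron transcript without a coding sequence. Of 10409 stretches of 50 bases in Etv3 transcripts, 150 (1.44%) recurred in the pseudogene Etv3l, which had 0 counts. Erf, the close relative of Etv3 and a repressor controlled by ERK, lay below 1 TPM at 0.52 and 0.67 TPM.

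Etv6, a repressor also called TEL that blood stem cells need, lies at chr6:134035700-134270158 on the plus strand. It stood at 8.88 and 11.87 TPM (mean 10.4 ± 2.11 TPM, SD, n = 2 libraries), from 571 and 424 counts, so its TPM was higher in the library with fewer Etv6 reads. Its TPM was assigned differently to its transcripts in the libraries. Etv6-201 and Etv6-204 hold 0 bases that are in no other Etv6 transcript, and Etv6-202 holds 162. The deposited credibility bounds of Etv6-201, 1.31 to 5.44 TPM in technical replicate 1 and 0.07 to 2.65 TPM in technical replicate 2, overlapped. Etv6-201, with the longest coding sequence (1455 nt), took 44.9% of the TPM in technical replicate 1 and 11.9% in technical replicate 2. Etv6-202, with 1188 nt, took 47.0% and 41.9%. The fragments Etv6-203 (373 nt) and Etv6-204 (611 nt) took 0% and 8.09% in technical replicate 1 and 20.7% and 19.6% in technical replicate 2, where they rested on 8.74 and 14.36 estimated counts. The length deposited for the gene was 5222 nt in technical replicate 1 and 3301 nt in technical replicate 2.

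Elk4, a ternary complex factor that binds with SRF at genes of the immediate early response, lies at chr1:132007607-132032612 on the plus strand. It stood at 60.94 and 56.48 TPM (mean 58.7 ± 3.15 TPM, SD, n = 2 libraries), below Ets1, Elf1 and Fli1 and above the other members on the TPM scale. Most of this level came from Elk4-207, a transcript of 2107 nt annotated as a target of nonsense-mediated decay, which took 72.5% and 72.0% of the TPM and 67.6% and 66.2% of the counts. Elk4-202, with the full coding sequence of 1290 nt, took 14.7% and 15.4%, and Elk4-201, with the same coding sequence, had no counts. Elk4-201 holds 0 bases that are in no other Elk4 transcript, so its value depends on how shared reads were assigned. Elk4-207 is annotated without its 5′ end. It shares 1058 of its bases with Elk4-202 and holds 918 bases that no other Elk4 transcript has. The other ternary complex factors were lower on the TPM scale. Elk3 stood at 28.74 and 28.04 TPM and Elk1 at 2.39 and 2.44 TPM.

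The neighbouring ranks were separated to different degrees. From Ets1 down to Elf4, with Elk3 between Elf2 and Elf4, neither the libraries nor the deposited credibility bounds of neighbours overlapped. For Elf4 and Gabpa, and for Etv3 and Etv6, the libraries were separate and the bounds overlapped. For Gabpa and Etv3, for Ets2 and Etv5, and for Etv5 and Elk1 both overlapped. Etv6 and Ets2 were separate by both. The deposited bounds surround a posterior mean TPM that differs from the TPM, and for Ets1 in technical replicate 1 they ran from 556 to 567. Their level of probability is not stated in the files.

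The 13 other ETS genes that were not detected included factors of other lineages. Spi1, the factor PU.1 of myeloid and B cells, had 0 and 2 counts, Spib, of B cells and dendritic cells, had 3 and 5, and Spic, of red pulp macrophages, had 6 and 2. Together they came to 0.57 TPM in each library. Etv1 stood at 0.57 and 0.82 TPM and Etv4 at 0.10 and 0.33 TPM. Etv5, the third gene of that PEA3 group, was detected at 1.88 and 4 TPM. Spdef, an epithelial factor, had 0 and 2 counts, and Ehf, Fev and Etv2 had no counts in the larger table.

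In 6 of the 10 members (Ets1, Ets2, Fli1, Elf4, Gabpa and Elk4) a single transcript took 50% or more of the TPM in both libraries. Members differed in how much of their RNA was assigned to protein-coding transcripts whose coding sequence holds the third-helix codons printed above. For Fli1 and Elf4 the share was 100% in both libraries, and for Ets1 98.7% and 98.6%. For Elf1 it was 92.2% and 91.6%, for Etv3 91.5% and 93.9%, for Ets2 86.1% and 96.8% and for Gabpa 87.7% and 82.8%. These 7 members thus carried their level mainly on transcripts that code for this helix by annotation. Elk4 and Elf2 did not. Elf2-208 holds the helix bases, but outside its annotated coding sequence, and is counted here as without the codons. It took 25.7% and 18.7% of the Elf2 TPM, and 46.8% and 35.6% of the counts. The share of Elk4 was 17.5% and 19.3%, which left 10.67 and 10.92 TPM of its 60.94 and 56.48 TPM. The share of Elf2 was 19.6% and 24.3%, which left 7.56 and 10.64 TPM. By estimated counts in place of TPM, the shares were 31.1% and 32.7% for Elk4 and 34.4% and 43.6% for Elf2. The share of Etv6 was 91.9% in technical replicate 1 and 53.8% in technical replicate 2, and by counts 99.1% and 92.97%. For Elk4-207, Elf2-205, Etv6-203 and Etv6-204, each with an end missing from the annotation, the absence of the helix describes the annotated fragment. Counted on these transcripts alone, the median member stood at 14.4 TPM in place of 31.1 TPM.

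**Figure D2:**
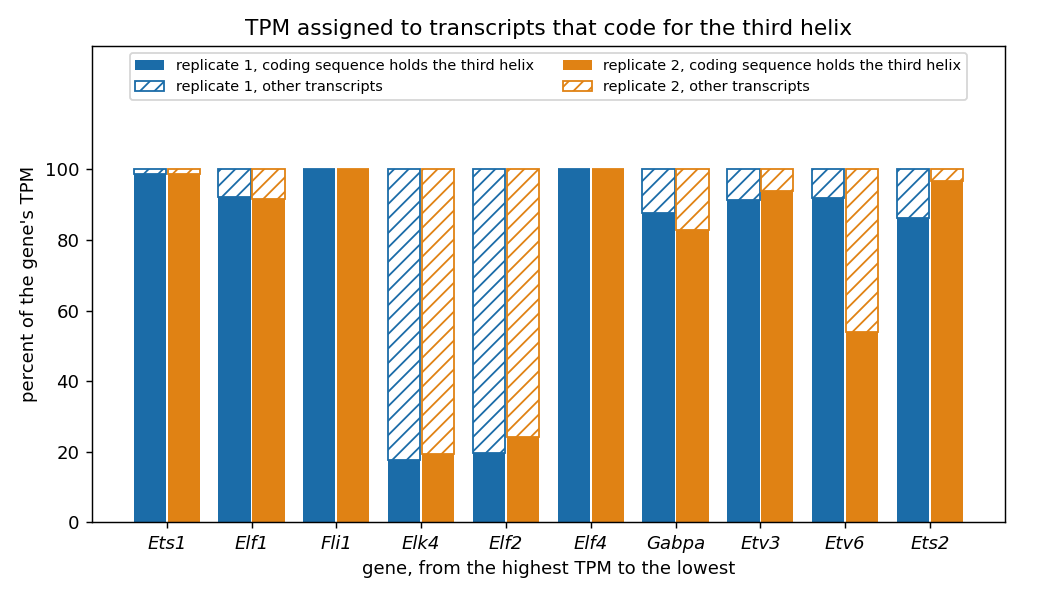
Percent of each member's TPM on protein-coding transcripts whose coding sequence holds the third-helix codons (filled) and on its other transcripts (hatched). Bars show technical replicate 1 (blue) and technical replicate 2 (orange), with genes ordered by TPM. Elk4 and Elf2 lie between 17.5% and 24.3% in both libraries, and Etv6 at 91.9% and 53.8%.

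Each library also had a smaller gene table, with whole-number counts for GENCODE M4 genes and totals of 3581589 and 3271045. These counts are not divided by length, so they are set beside the counts of the larger table gene by gene. Over 10937 matched genes with at least 10 counts, the larger table held a median of 2.32 times the smaller one. For Ets1 the ratio was 29.5, from 1248 and 1160 counts in the smaller table, which is the 97.5th percentile of these genes. Etv3 and Elk4 had ratios of 11.2 and Elf4 of 11.1, between the 93rd and 94th percentile. Ets2 had 6.76, Fli1 4.34, Gabpa 4.22, Etv6 4.06 and Elf1 3.16, while Elf2, at 2.24, was below the median. As a result Elf1, with 1585 and 1388 counts, exceeded Ets1 in the smaller table, and Elk3, with 314 and 303 counts, exceeded Elk4, with 126 and 148. By counts in the smaller table, which are not per length, 8 of the 10 members held another rank than by TPM, and only Fli1 (rank 3) and Ets2 (rank 10) kept theirs. Elk4 went from rank 4 to 6, below Elf2 (362 and 373 counts) and Gabpa (185 and 188 counts), Elf2 from 5 to 4, Gabpa from 7 to 5 and Elf4 from 6 to 7, and Etv3 and Etv6 exchanged ranks 8 and 9. How the smaller table was counted is not given in the sources used here, and the cause of these ratios was not tested. The ETS genes that were not detected in the larger table had at most 4 counts each in the smaller table.

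**Figure D3:**
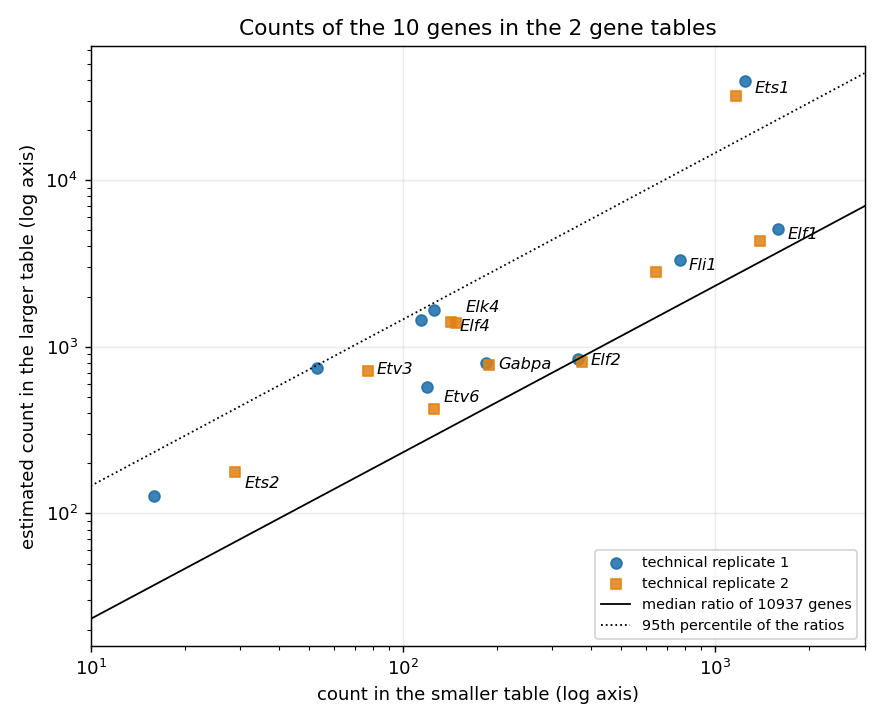
Estimated count in the larger gene table against the count in the smaller gene table, both on log axes, for the 10 members in technical replicate 1 (circles) and technical replicate 2 (squares). The solid line is the median ratio of 10937 genes (2.32) and the dotted line the 95th percentile of the ratios, above which Ets1 lies in both libraries.

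The libraries come from the same cells, so a difference between them measures the technical spread of a member and not a response. Of the 10 members, 3 passed a two-sided exact binomial test on the estimated counts (adjusted p under 0.05, Benjamini-Hochberg over all genes tested), against 19.2% of the 17334 genes tested. Ets1 was lower in technical replicate 2, by a log2 ratio of -0.11 (exact binomial test, adjusted p = 1.18e-20), a small difference on a large count. Ets2 was higher in technical replicate 2, by 0.65 (exact binomial test, adjusted p = 0.0015). Etv6 was lower, by a log2 ratio of -0.25 (exact binomial test, adjusted p = 0.0371), although its TPM was higher in that library. The other 7 members had log2 ratios between -0.09 and 0.13, and their median over all 10 was 0.02, beside 0.00 for all genes tested. The binomial test assumes that only the sampling of reads separates the libraries. When edgeR was given the common dispersion of the libraries, its exact test called 0 of the 10 members (1 at an unadjusted p under 0.05), against 1.8% of the genes. That dispersion was fitted to these same libraries and includes their differences, so the edgeR test cannot decide on small ones. In the smaller table the exact binomial test called 0 of the 10 members (4 at an unadjusted p under 0.05), against 6.57% of 11051 genes, and there the ratios of Ets1 (0.03), Etv6 (0.21) and Elk4 (0.36) had the opposite sign. Outside the members, Etv5 was higher in technical replicate 2, by 0.88 (exact binomial test, adjusted p = 1.45e-04, edgeR adjusted p = 0.0871).

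**Figure D4:**
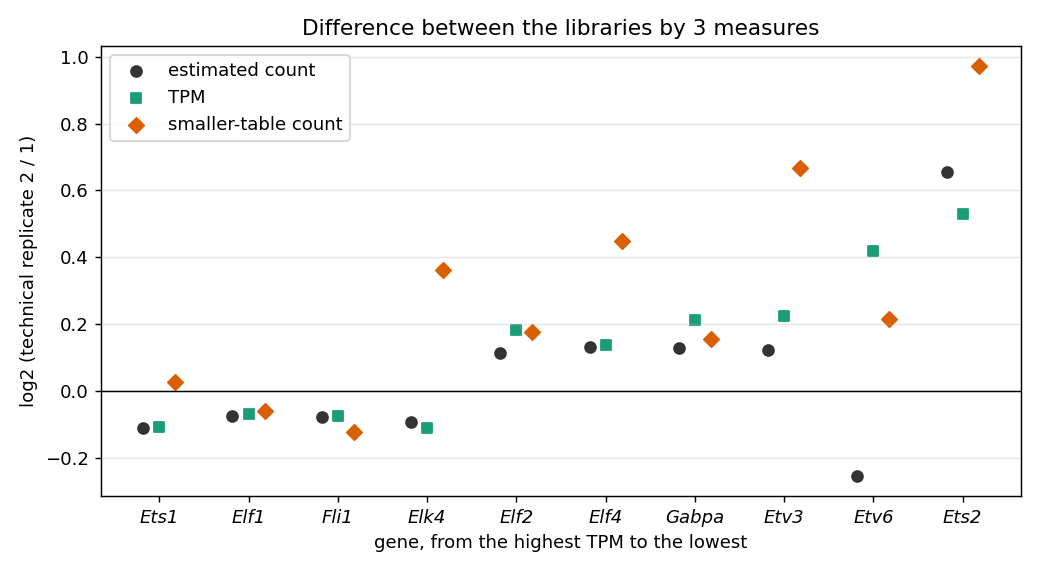
Difference of each member between the libraries, as log2 of technical replicate 2 over technical replicate 1, by estimated count, by TPM and by the count of the smaller table. Ets2 lies above 0 by all 3 measures, from 0.53 to 0.97, while Etv6 lies below 0 by estimated count (-0.25) and above 0 by TPM (0.42) and by the smaller table (0.21).

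The genes listed here as partners of ETS factors were all detected as RNA, and their proteins were not measured. Of 18 partner genes 18 were detected, with a median of 29.6 TPM, and 7 passed the exact binomial test between the libraries, 4 higher and 3 lower in technical replicate 2, beside 19.2% of all genes tested. The highest were Ncor1, a corepressor of nuclear receptors, at 143.52 and 143.77 TPM, Daxx, a histone chaperone that binds Ets1, at 76.07 and 79.19 TPM, and Crebbp, a histone acetyltransferase, at 51.60 and 52.10 TPM, followed by Gabpb1. Of 15 genes whose products modify ETS factors or control their stability, 15 were detected, with a median of 19.9 TPM, and 1 was higher and 1 lower by the same test, again beside 19.2% of all genes. Among them Camk2d, a calcium-dependent kinase, stood at 67.20 and 66.81 TPM and the casein kinase gene Csnk2a1 at 42.56 and 51.08 TPM.

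Genes that Ets1, Fli1 or GABP are known to bind or regulate ranged widely in level. Of 20 such genes 20 were detected, with a median of 243 TPM, beside 13.4 TPM for all detected genes, and 4 were higher and 5 lower in technical replicate 2 by the exact binomial test, which called 19.2% of all genes tested. The list shares Trac, Lck, Cd3e, Cd3g, Il2ra and Foxp3 with the T cell markers, which any regulatory T cell transcribes. Its highest members were the receptor constant segment Trac at 3031.57 and 2963.75 TPM, the cytokine receptor chain Il2rg at 1307.10 and 1262.88 TPM, the kinase gene Lck at 1286.63 and 1168.86 TPM and Cd3g at 1143.90 and 1164.15 TPM. Its lowest were the CD8 T cell gene Cd8a at 2.52 and 2.35 TPM and Tbx21, the factor of T helper cells that make interferon gamma, at 2.54 and 3.03 TPM. Of 6 genes linked to Elf4, 5 were detected, with a median of 18.9 TPM, and 2 of the 6 were lower in technical replicate 2 by that test (19.2% of all genes). Among them the lymph node homing receptor gene Ccr7 stood at 213.24 and 199.27 TPM, Klf2, a factor of T cell quiescence and trafficking, at 20.90 and 22.70 TPM and the protease gene Gzmb at 14.80 and 17.08 TPM. Klf4, a brake on cell division, stood at 1.13 and 0.58 TPM. Of 15 genes of the serum response that SRF or its Elk partners control, 12 were detected, with a median of 16.6 TPM. By that test 2 of the 15 were higher and 3 lower in technical replicate 2 (19.2% of all genes). The actin gene Actb stood at 39105.80 and 37907.20 TPM, the survival gene Mcl1 at 64.12 and 57.64 TPM, Egr2, a factor induced by receptor signalling, at 51.59 and 46.01 TPM and Ier2 at 34.09 and 35.62 TPM. Fosb, Ier3 and the adhesion gene Vcl lay below 1 TPM in at least 1 library, with values between 0.73 and 1.09 TPM. Junb, which is also on the list of partners, was among the higher calls at 24.69 and 33.85 TPM.

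The sequence that ETS factors read was searched in promoter windows of RefSeq (GRCm38.p6), each from 250 bases before to 50 bases after an annotated start. The motif was CCGGAAG on either strand, which holds the shorter core GGAAG within it. Of the 10 members 8 had an entry, with 13 windows in all, and the motif was in 2 of them, 1 of Elk4 and 1 of Gabpa. The 30 bases around each match are printed on the plus strand with the motif in capitals, because these were the only member windows searched that held the longer motif. The shorter core GGAAG was in windows of 7 of the 8 members, all but Ets2.
Elk4: cggcccctcccCCGGAAGtgacgctcgcgc
Gabpa: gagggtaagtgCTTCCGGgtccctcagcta
The Elk4 run lies at chr1:132007541-132007570 and its motif starts 68 bases before the start site. The Gabpa run lies at chr16:84835020-84835049 and its motif, on the reverse strand, starts 93 bases before the RefSeq start site. This run lies inside the GENCODE span of Gabpa given above, which begins at chr16:84834925. Over the 16498 protein-coding genes with an entry, some with several windows, 11.9% of 20119 windows held the motif. It was in 19.8% of 10397 windows of genes detected here and in 3.37% of 9722 windows of the other genes. The windows of detected genes were richer in GC, with a median of 60.7% against 52.0%. Within quartiles of GC content, from lowest to highest, the shares were 6.99%, 19.8%, 23.9% and 20.6% for detected genes and 1.22%, 3.55%, 6.43% and 5.15% for the others. The shorter core GGAAG was in 77.2% and 67.3% of the windows. A match is a description of the letters in the window, and no binding was measured.

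**Figure D5:**
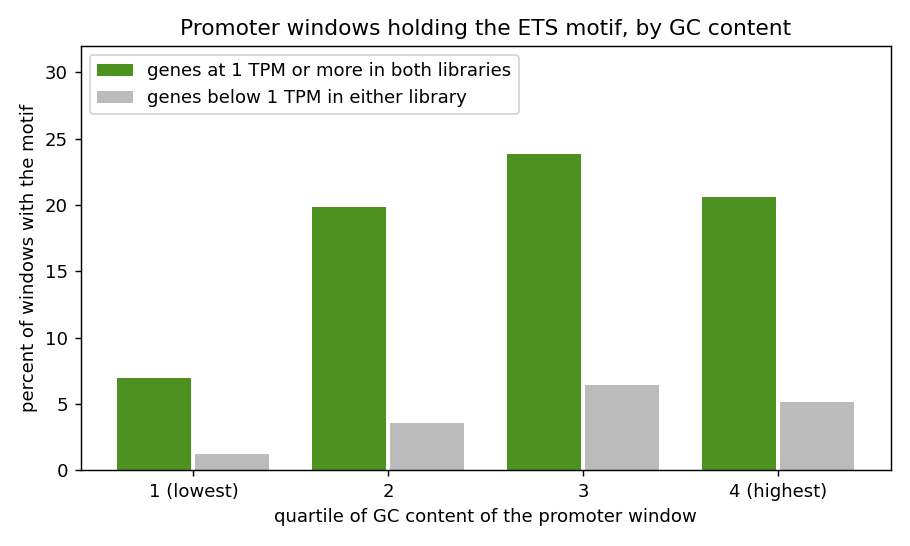
Percent of RefSeq promoter windows of protein-coding genes that hold the ETS motif on either strand, by quartile of GC content of the window, for genes detected in both libraries (green) and the other genes (grey). In each quartile the green bar is the higher, at 6.99% against 1.22% in the lowest and 20.6% against 5.15% in the highest.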

How the data were processed

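PolyA RNA of 1 biological replicate was measured in 2 technical libraries. Per the file headers and the text deposited with each library, the authors made the larger gene table and the transcript table from transcriptome alignments (mm10, GENCODE M21), with estimated counts, TPM, FPKM and, per transcript, the percent of the gene's TPM. The credibility bounds of TPM that the authors deposited were treated as signal values. The smaller table held whole-number counts that the authors deposited for GENCODE M4 genes. Aligner, quantifier, strand setting and versions are not given in the sources used here.

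The members and all gene lists were chosen with earlier results of these data known. Named were the 10 members, every other ETS gene, and, of the lists of partners, modifiers and targets, the 4 genes with the highest mean TPM, genes below 1 TPM in either library and genes that the binomial test called with more than a 2-fold difference (none). Other genes of these lists (Gabpb1 and Gabpb2 beside Gabpa, Foxp3, Junb, Cd3e, Il2ra, Cd8a, Tbx21) were added after their values were seen. So were Atp5j, Wbp4, Mfsd4a and the pseudogene Etv3l. Some genes that this rule or the marker lists would name are not reported here. Transcripts were named at 10% or more of a gene's TPM in either library, with Ets1-202, Ets1-203 and Elk4-201 added.

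Estimated counts were rounded and tested with a two-sided exact binomial test (scipy 1.17.1) on genes with at least 10 counts, with TMM library sizes from edgeR 4.0.16 and Benjamini-Hochberg adjustment at 0.05. edgeR's exact test used a common dispersion fitted with an intercept only (coefficient of variation 0.105). DESeq2 1.42.0 gave alternative size factors. The binomial test was tested on simulated data that held read sampling alone, so this gives no rate of false calls for the measured libraries. Members were also ranked by the counts of the smaller table. The depth was 15386113 and 13604480 counts, and intervals are 95% Poisson intervals. Third-helix codons were found in GENCODE M21 transcripts, and exon overlaps and shared stretches of 50 bases were taken from the same annotation.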

Additional observations from a re-analysis of the deposited data

How the results depend on the processing

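The number of members detected and the number with a leading transcript stayed within 1.5 times of the reported count under every alternative run for them. So did the number of members called between the libraries with DESeq2 size factors, with total counts, without the filter on low counts, with at least 50 counts and with posterior mean counts. The exceptions follow, and the cause was not tested. With the posterior mean TPM, Ets1 (538), Fli1 (70.9), Elf1 (91.0), Elf4 (18.6), Etv3 (13.9) and Elk4 (53.7) were lower by more than their SD. Ets2, Elf2, Gabpa and Etv6 stayed within theirs. The median TPM of the members, 31.1, came to 28.2 with the posterior mean TPM and to 14.4 on protein-coding transcripts with the third helix, a setting chosen after seeing the data, and it ran from 29.3 to 32.9 when either library was left out. Of the 3 members called between the libraries, 0 were called in the smaller table and 0 by edgeR with a common dispersion, and over all genes 3328 calls became 726 and 312. The sign turned in the smaller table for Ets1 (0.027), Etv6 (0.21) and Elk4 (0.36), and for Etv6 (0.42) with the ratio of TPM, also chosen after seeing the data. Without the filter on low counts the call of Etv6 was lost (exact binomial test, adjusted p = 0.0603), and with DESeq2 size factors Elf1 was called (-0.09, exact binomial test, adjusted p = 0.0264). Depth limited Ets2, with 127 and 177 counts, the most. No paired analysis was possible because there was 1 group.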
